A study of Homo sapiens with 24 samples.

Results

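The integrated stress response genes described here are ATF3, ATF4, DDIT3, DDIT4, TRIB3, ASNS, CHAC1, SESN2, HERPUD1 and PPP1R15A, 10 genes chosen by name and looked up by symbol in a table of 25541 entries. All 10 were found and all 10 passed the minimum level for testing, 9 under a symbol of their own and HERPUD1 in an entry merged with RP11-325K4.3. The series holds 24 RNA-seq libraries from derivatives of T47D, a human breast cancer cell line: T47D-co, labelled as carrying progesterone receptor, and T47D-Y, labelled as lacking it. The interferon was interferon-alpha (IFN) at 20 IU per ml, with water as its control, each given for 18 hours. The progestin was R5020, a synthetic compound, at 10 nM, with ethanol (EtOH) as its control, each given for 6 hours. The 8 groups, with 3 biological replicates each, were T47D-co given R5020 and IFN, T47D-co given EtOH and IFN, T47D-co given R5020 and water, T47D-co given EtOH and water, and T47D-Y given the same 4 combinations. All cells were kept in medium with 5% serum and insulin at 6 ng per ml. The question the series puts, by its title, is how progesterone receptor weakens interferon signalling, and each derivative stands for its receptor status as a single line.

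The integrated stress response is a pathway in which several kinases, each sensing another kind of stress, phosphorylate the translation factor eIF2. Overall protein synthesis then slows while the messenger RNA of ATF4 is translated more, and ATF4, a transcription factor, switches on genes for amino acid supply, redox balance and feedback. When stress persists, CHOP, the protein made from DDIT3, joins ATF4 and turns on further genes, among them PPP1R15A, whose product GADD34 directs a phosphatase to eIF2 and so restores translation. Of the interferon-induced genes, EIF2AK2 encodes PKR, a member of this kinase group that is activated by double-stranded RNA. ATF4 is controlled largely at translation, and protein was not measured here, so what follows concerns RNA levels alone.

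The libraries held 14141307 to 33607500 estimated fragments each, with a median of 18385830. Levels are given as scaled fragments, which are estimated fragments per gene after 1 common scaling of the 24 libraries. They are not divided by gene length, so levels are compared between groups and not between genes. PGR, the progesterone receptor gene, stood at 26481.6 ± 1399 scaled fragments in untreated T47D-co and 692 ± 37.5 in untreated T47D-Y (SD, n = 3 each). ISG15, an interferon target, averaged 522 with IFN and 65.5 with water in T47D-co given EtOH, and 559 with IFN and 12.2 with water in T47D-Y given EtOH. FKBP5, a progestin target, averaged 21579 with R5020 and 2076 with EtOH in T47D-co given water, against 2106 with R5020 and 1217 with EtOH in T47D-Y given water. All 8 luminal epithelial markers looked up were present, and PTPRC, CD3E and CDH5 stayed under 10 scaled fragments in every library. A further 7 markers of other cell types were looked up and had no entry in the table used. A set of 4 libraries, all given water, had 0.942 to 1.07% of their fragments on mitochondrial genes, against 3.17 to 4.74% in the other 20. They were replicate 2 of T47D-co given EtOH, replicates 1 and 2 of T47D-Y given R5020, and replicate 1 of T47D-Y given EtOH. Calls on the 10 genes that are lost without them are given beside the result. Without them T47D-Y given R5020 and water keeps 1 library, so its comparisons are then given as sizes only.

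ATF4 pairs with C/EBP proteins on a composite element called CARE, whose core reads TGATGNAA. The 300-base RefSeq promoter windows of GRCh38.p14, which run from 250 bases before to 50 bases after a start, covered all 10 genes with 16 windows. The CARE core, searched on both strands, was present in the windows of 4 of the 10 genes, ATF3, ASNS, CHAC1 and HERPUD1. The same letters occur in 4.46% of the 27305 genes with a window. A stretch of 80 bases is shown for each of the 4, because the genes differ widely in how they moved while sharing these letters. Each is read along the gene's own strand with the match in capitals, and in CHAC1 and HERPUD1 the match is on the opposite strand, so its complement is what is seen. The stretches lie at chr1:212565180-212565259 on the plus strand for ATF3, chr7:97872433-97872512 on the minus strand for ASNS, chr15:40953226-40953305 on the plus strand for CHAC1 and chr16:56931930-56932009 on the plus strand for HERPUD1.
ATF3: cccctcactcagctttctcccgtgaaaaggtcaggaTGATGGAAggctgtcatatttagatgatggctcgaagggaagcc
ASNS: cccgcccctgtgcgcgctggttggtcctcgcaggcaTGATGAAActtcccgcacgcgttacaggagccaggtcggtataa
CHAC1: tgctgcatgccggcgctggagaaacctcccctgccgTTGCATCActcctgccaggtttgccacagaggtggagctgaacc
HERPUD1: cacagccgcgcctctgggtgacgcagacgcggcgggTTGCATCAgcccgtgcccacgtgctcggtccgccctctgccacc
The matches begin 191 bases before the start in ATF3, 68 in ASNS, 209 in CHAC1 and 176 in HERPUD1. The palindromic steroid receptor element, searched as a consensus with free positions, was in the windows of 0 of the 10 genes and in 0.480% of all genes with a window. The endoplasmic reticulum stress response element was likewise in 0 of the 10 and in 0.0916% of all genes. These are matches of letters in 1 window per start, not binding sites.

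R5020 split the stress response genes of T47D-co into a group that rose, a group that fell and a pair that did neither. With water, 8 of the 10 were called by limma at a Benjamini-Hochberg adjusted p under 0.05, against 56.5% of all 20162 tested entries. ATF3, ATF4, DDIT4, TRIB3 and CHAC1 rose, 5 of 10 against 26.6% of all entries, and DDIT3, SESN2 and PPP1R15A fell, 3 of 10 against 30.0%. Since more than 1 entry in 2 was called, the count alone says little about these genes, and the sizes below say more. With IFN present 7 were called, against 58.2% of all entries, 4 higher (27.5%) and 3 lower (30.6%), with the same direction in each and with ATF4 missing. The median log2 fold change of the 10 genes was 0.08 with water and 0.04 with IFN, beside -0.04 and -0.05 over all tested entries. The ATF4 partner gene DDIT3 and the feedback gene PPP1R15A fell, though the DDIT3 values are uncertain, as given below. Among genes downstream of ATF4, TRIB3, CHAC1 and ATF3 rose, SESN2 fell and ASNS was not called.

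**Figure D1:**
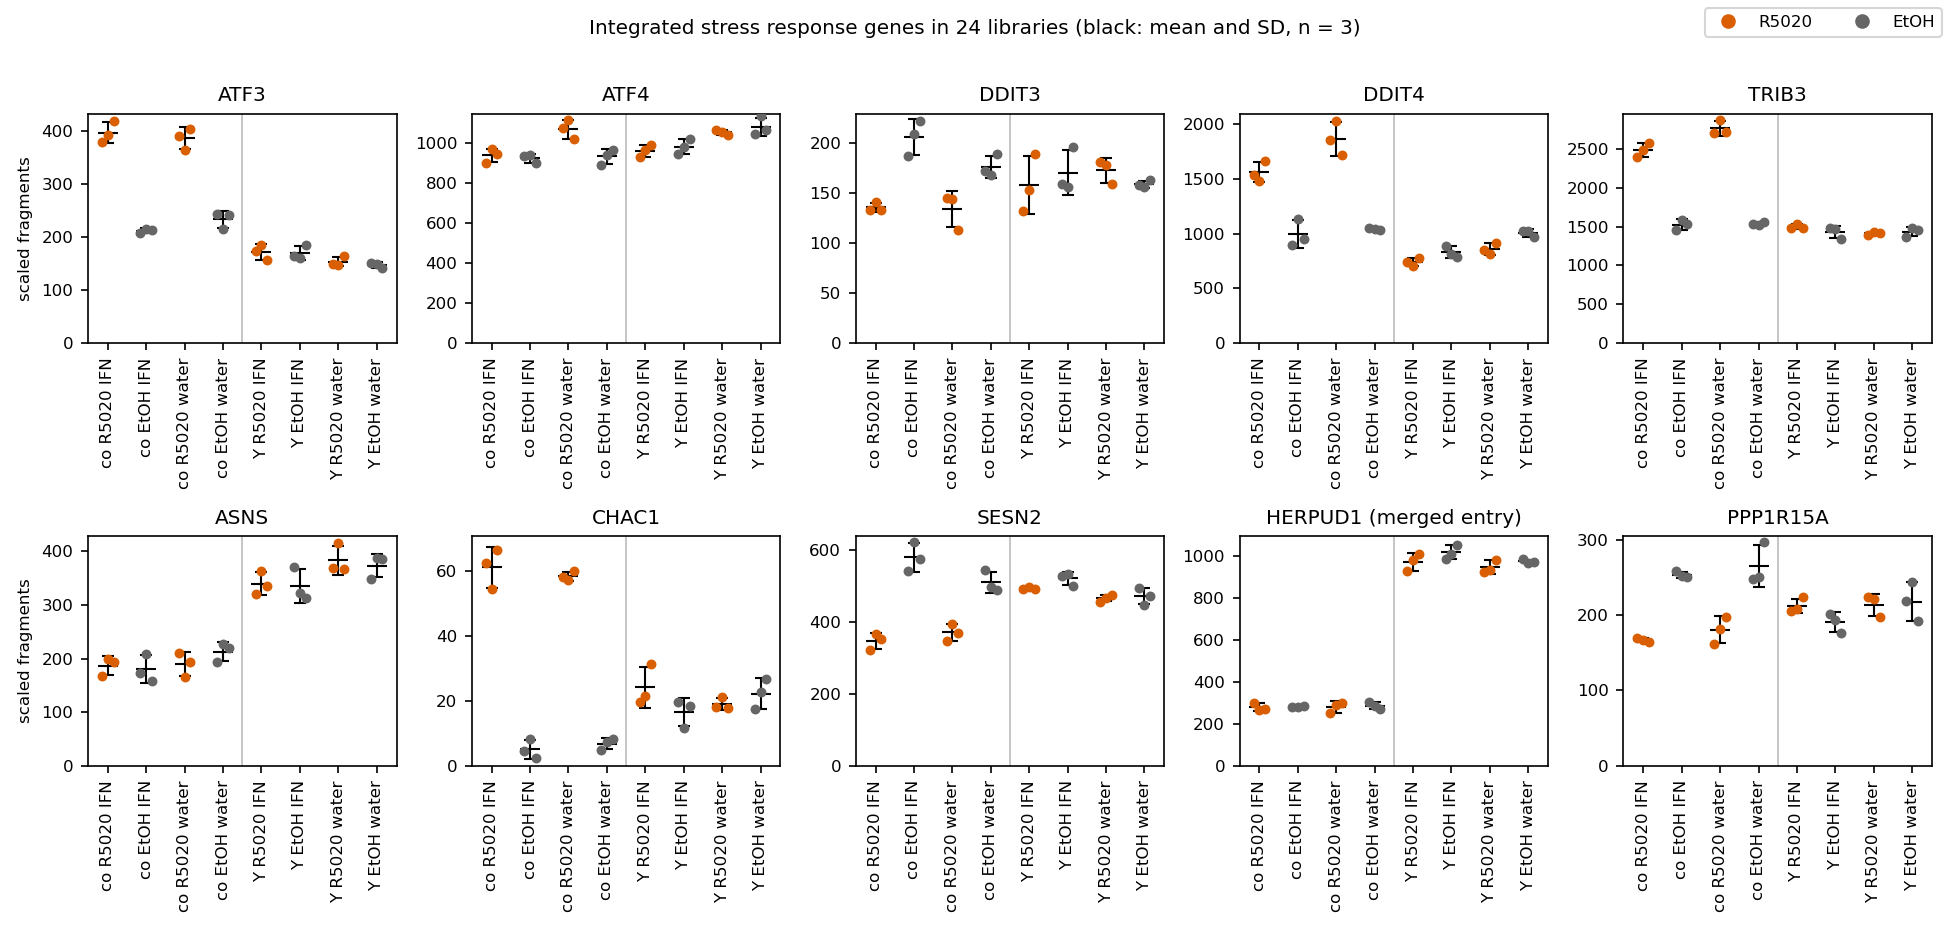
Scaled fragments of the 10 genes (vertical axes, each from 0) in the 24 libraries, by group, with R5020 in orange and EtOH in grey, and the mean and SD of 3 libraries in black. CHAC1 sat at 54.2 to 66.5 in T47D-co given R5020 and at 2.37 to 8.17 in T47D-co given EtOH, while HERPUD1 sat at 249 to 301 in T47D-co and 921 to 1051 in T47D-Y.

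CHAC1, which encodes an enzyme that breaks down glutathione and is a well-known ATF4 and CHOP target, moved most. It lies at chr15:41245159-41248710 of GRCh37, the build of the deposited table. Its levels were 58.0, 57.1 and 59.8 scaled fragments in T47D-co given R5020 and water, against 4.81, 7.14 and 8.07 in T47D-co given EtOH and water. With IFN they were 62.3, 54.2 and 66.5 with R5020, against 4.41, 8.17 and 2.37 with EtOH. Every R5020 library thus lay above every EtOH library of this line, by a wide gap. The log2 fold change was 2.97 ± 0.30 with water (SE, limma, adjusted p = 4.58e-09) and 3.49 ± 0.30 with IFN (adjusted p = 2.37e-10). These folds are on the log2(value + 1) scale, which understates the change of a gene as low as CHAC1 was with EtOH.

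TRIB3, a pseudokinase induced by ATF4 and CHOP that in turn restrains ATF4, had 2704, 2875 and 2712 scaled fragments in T47D-co given R5020 and water, against 1535, 1522 and 1559 in T47D-co given EtOH and water. With IFN it had 2396, 2486 and 2572 with R5020, against 1453, 1589 and 1539 with EtOH. The groups did not overlap, and the lowest R5020 library exceeded the highest EtOH library in both settings. The log2 fold changes were 0.84 ± 0.04 with water (limma, adjusted p = 4.81e-15) and 0.70 ± 0.04 with IFN (adjusted p = 2.08e-13). The gene lies at chr20:361260-378203.

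ATF3, a stress-induced transcription factor downstream of ATF4, had 390.3, 364.5 and 404 scaled fragments in T47D-co given R5020 and water, against 242.5, 215 and 242 in T47D-co given EtOH and water. With IFN it had 379, 392 and 418 with R5020, against 207, 215 and 213 with EtOH. The R5020 libraries were again all higher. The log2 fold changes were 0.73 ± 0.08 with water (limma, adjusted p = 1.86e-08) and 0.90 ± 0.08 with IFN (adjusted p = 3.94e-10). ATF3 spans chr1:212738675-212794119 in the table.

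DDIT4, also called REDD1, encodes an inhibitor of the growth kinase complex mTORC1. It had 1859, 2029.6 and 1719 scaled fragments in T47D-co given R5020 and water, against 1053, 1043 and 1033.5 in T47D-co given EtOH and water. With IFN it had 1535, 1486 and 1662.5 with R5020, against 899, 1138.5 and 953 with EtOH. The groups did not overlap in either setting, and the log2 fold changes were 0.84 ± 0.07 with water (limma, adjusted p = 1.71e-10) and 0.65 ± 0.07 with IFN (adjusted p = 1.64e-08). At its locus, chr10:74033677-74035794, fragments were shared with RP11-442H21.2, and DDIT4 held 65.2 to 78.4% of the sum by group. The summed locus differed between R5020 and EtOH by 0.87 with water and 0.80 with IFN on the log2 scale, close to the values of DDIT4 itself.

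ATF4, the central transcription factor of the pathway, changed little at the RNA level. It had 1071, 1111 and 1018 scaled fragments in T47D-co given R5020 and water, against 890.2, 937 and 966 in T47D-co given EtOH and water. The groups did not overlap, and the log2 fold change was 0.20 ± 0.04 (limma, adjusted p = 0.000561). With IFN the levels were 900.5, 966.5 and 941 with R5020, against 931, 939 and 896 with EtOH. These overlapped, with a log2 fold change of 0.02 ± 0.04 (limma, adjusted p = 0.709) and a 95% interval of -0.07 to 0.11. The difference between the responses with IFN and with water was -0.17 ± 0.06, with an adjusted p of 0.175 in limma. ATF4 lies at chr22:39915699-39918691.

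Among the genes that fell, SESN2 encodes sestrin 2, a leucine sensor and ATF4 target that like DDIT4 restrains mTORC1. It had 348, 395 and 370.4 scaled fragments in T47D-co given R5020 and water, against 545, 497 and 489.7 in T47D-co given EtOH and water. With IFN it had 322, 365 and 352 with R5020, against 542, 623 and 574 with EtOH. The highest R5020 library lay below the lowest EtOH library in each setting. The log2 fold change was -0.46 ± 0.06 with water (limma, adjusted p = 6.1e-07) and -0.74 ± 0.06 with IFN (adjusted p = 1.4e-10). The mTORC1 inhibitors DDIT4 and SESN2 thus moved in opposite directions with R5020. SESN2 lies at chr1:28586037-28609002.

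PPP1R15A had 162, 181 and 197.5 scaled fragments in T47D-co given R5020 and water, against 247, 250.5 and 297 in T47D-co given EtOH and water. With IFN it had 169.8, 167 and 165 with R5020, against 258, 252 and 250.2 with EtOH. The R5020 libraries were lower throughout, with log2 fold changes of -0.55 ± 0.09 with water (limma, adjusted p = 1.37e-05) and -0.60 ± 0.09 with IFN (adjusted p = 4.5e-06). Its locus is chr19:49375648-49379314.

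DDIT3 had 145, 144 and 113 scaled fragments in T47D-co given R5020 and water, against 172, 168 and 189 in T47D-co given EtOH and water. With IFN it had 133, 141 and 133.5 with R5020, against 187.5, 209 and 222 with EtOH. No R5020 library reached the lowest EtOH library, and the log2 fold changes were -0.40 ± 0.12 with water (limma, adjusted p = 0.00593) and -0.60 ± 0.12 with IFN (adjusted p = 0.000127). Without T47D-co R5020 water replicate 3, the lowest library, the fold change with water was -0.28 and the adjusted p 0.0605. The gene shares chr12:57853917-57914300 with MARS, GLI1 and ARHGAP9 and held only 5.48 to 9.39% of that locus by group, where MARS held 90.5 to 94.4%. MARS rose by 0.20 and the summed locus was higher by 0.16 with R5020 and water. The sum follows MARS, so it cannot show whether DDIT3 fell. The DDIT3 values are uncertain where fragments were divided between genes.

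HERPUD1 and ASNS stayed within their spread. HERPUD1, an endoplasmic reticulum membrane protein that serves the degradation of misfolded proteins, had 249, 288 and 300.2 scaled fragments in T47D-co given R5020 and water, against 301, 285.5 and 271 in T47D-co given EtOH and water. Its log2 fold change was -0.04 ± 0.06, with a 95% interval of -0.16 to 0.09. ASNS, asparagine synthetase and a classical ATF4 target, had 209.9, 166 and 194 with R5020, against 193, 226 and 219 with EtOH. Its log2 fold change was -0.17 ± 0.10 (limma, adjusted p = 0.177), with a 95% interval of -0.38 to 0.05. The R5020 and EtOH libraries overlapped for both genes, and with IFN the fold changes were -0.01 ± 0.06 for HERPUD1 and 0.05 ± 0.10 for ASNS. ASNS and HERPUD1 carry the CARE letters in the promoter windows shown above, as do the rising CHAC1 and ATF3.

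Other features of T47D-co moved with R5020 as well. The 8 luminal markers summed to 67582 to 69868 scaled fragments with R5020 and water, against 97533.5 to 98490.4 with EtOH and water. The 3 basal markers in the table, KRT5, TP63 and ACTA2, summed to 607 to 630.5 with R5020 and water, against 412 to 528 with EtOH and water. The leucocyte markers, of which PTPRC and CD3E stayed under 10, summed to 5489 to 5899 with R5020 and water, against 4323 to 4885 with EtOH and water, nearly all of it CD68. COL1A1, the 1 fibroblast marker of 5 in the table, ran from 321 to 375 with R5020 and water, against 437 to 465 with EtOH and water. Their part in the stress gene results was not tested. In bulk RNA, fewer cells of a type and less RNA per cell cannot be told apart.

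**Figure D2:**
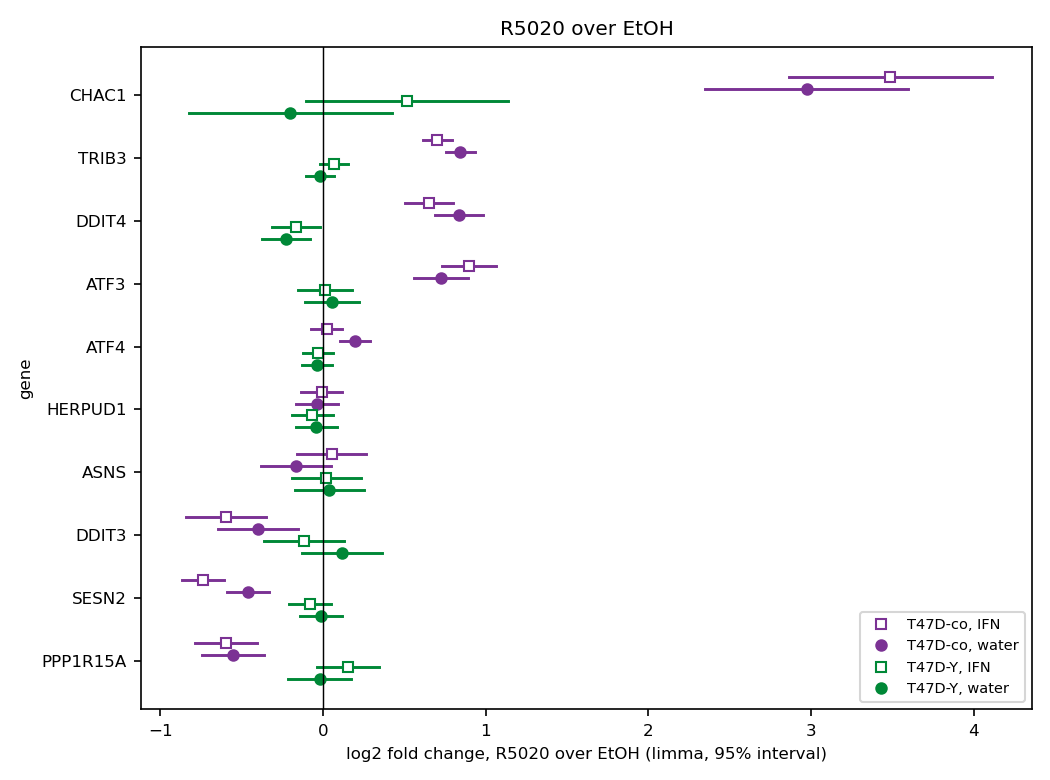
Log2 fold change of R5020 over EtOH (horizontal axis, limma estimate with 95% interval) for the 10 genes, in T47D-co (purple) and T47D-Y (green), with IFN (open squares) and water (filled circles). In T47D-co given water the estimates run from 2.97 for CHAC1 to -0.55 for PPP1R15A, and in T47D-Y given water from 0.12 for DDIT3 to -0.23 for DDIT4.

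In T47D-Y, R5020 left 0 of the 10 genes called, with water (against 0.218% of all entries) and with IFN (against 0.298%), by limma and by limma with voom weights. At an unadjusted p under 0.05, 1 gene passed in each setting, DDIT4, as did 849 of all 20162 entries with water and 1203 with IFN. DDIT4 had 854, 810.0 and 917 scaled fragments in T47D-Y given R5020 and water, against 1025, 1028.5 and 967.5 in T47D-Y given EtOH and water. The groups did not overlap, with a log2 fold change of -0.23 ± 0.07 and a limma adjusted p of 0.619, but the locus summed with RP11-442H21.2 differed by only 0.01. The sign was opposite to that in T47D-co. CHAC1 had 18.1, 21.1 and 17.7 with R5020 and water, against 17.3, 22.6 and 26.6 with EtOH and water, and the groups overlapped. Its log2 fold change was -0.20 ± 0.30 with a 95% interval of -0.82 to 0.42, which does not reach the value seen in T47D-co. With IFN, CHAC1 had 19.6, 21.4 and 31.2 with R5020, against 19.6, 11.7 and 18.4 with EtOH, a difference of 0.52 ± 0.30 with a limma adjusted p of 0.931. For TRIB3 with water the interval was -0.11 to 0.07, for ATF3 -0.11 to 0.22, for SESN2 -0.14 to 0.11 and for PPP1R15A -0.21 to 0.17.

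The difference between the R5020 responses of T47D-co and T47D-Y was tested directly with water, as an interaction. It was called by limma for 8 of the 10 genes, against 44.6% of all entries, with 5 values positive (21.6%) and 3 negative (23.0%). The difference was 3.18 ± 0.43 for CHAC1 (adjusted p = 8.72e-07), 1.07 ± 0.10 for DDIT4 (2.23e-09), 0.86 ± 0.06 for TRIB3 (7.08e-12) and 0.67 ± 0.11 for ATF3 (2.28e-05). ATF4 followed at 0.23 ± 0.06 (limma, adjusted p = 0.00407). It was negative for SESN2 at -0.44 ± 0.09 (adjusted p = 0.000168), PPP1R15A at -0.53 ± 0.13 (0.00165) and DDIT3 at -0.52 ± 0.17 (0.0145). ASNS and HERPUD1 had interaction values of -0.20 ± 0.15 and 0.01 ± 0.09, neither called. Without the 4 libraries of low mitochondrial share the limma values were -0.46 for PPP1R15A and -0.43 for DDIT3. T47D-Y given R5020 and water then held only 1 library, so no call is read from that fit. Without T47D-co R5020 water replicate 3 alone, DDIT3 stood at -0.40 with an adjusted p of 0.0581. With IFN the corresponding difference between lines was not tested.

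IFN moved these genes far less than R5020 did in T47D-co, and where a gene was called it was lower with IFN. In T47D-co given EtOH, 0 of the 10 were called by limma (against 1.00% of all entries) or with voom weights. Of all 20162 entries 1773 had an unadjusted p under 0.05, and so did 2 of the 10 genes. These were SESN2, at 542, 623 and 574 scaled fragments with IFN against 545, 497 and 489.7 with water, and ASNS, at 173, 209 and 159 with IFN against 193, 226 and 219 with water. Both pairs of groups overlapped, with log2 fold changes of 0.18 ± 0.06 and -0.24 ± 0.10. CHAC1 differed by -0.45 ± 0.30, a value its low counts leave wide, with a 95% interval of -1.08 to 0.17.

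In T47D-co given R5020, 3 of the 10 were called, all lower with IFN, against 11.3% of all entries called and 3.69% called lower. DDIT4 had 1535, 1486 and 1662.5 scaled fragments with R5020 and IFN, against 1859, 2029.6 and 1719 with R5020 and water, a log2 fold change of -0.26 ± 0.07 (limma, adjusted p = 0.0208). ATF4 differed by -0.19 ± 0.04 (limma, adjusted p = 0.00827) and TRIB3 by -0.15 ± 0.04 (adjusted p = 0.0217), and none of the 3 overlapped between groups. These calls rest on few libraries. Without T47D-co R5020 water replicate 2, limma gave -0.16 for ATF4 (adjusted p = 0.0579), -0.20 for DDIT4 (0.132) and -0.13 for TRIB3 (0.12). Without T47D-co R5020 IFN replicate 1 it gave -0.16 (0.0589), -0.25 (0.0757) and -0.13 (0.119) for the same genes. DDIT4 also lost its call without T47D-co R5020 water replicate 1 (-0.26, adjusted p = 0.0544) or R5020 IFN replicate 2 (-0.22, 0.1), and TRIB3 without the last of these (-0.15, 0.061). The summed DDIT4 locus differed by only -0.07. The direct test of whether the R5020 response changed with IFN called 0 of the 10 in T47D-co (against 1.01% of all entries) and 0 in T47D-Y (against 0%), by limma and with voom weights. At an unadjusted p under 0.05 it found 3 genes in T47D-co and 0 in T47D-Y, against 3099 and 695 of all 20162 entries. These comparisons share libraries with those of R5020 over EtOH above.

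**Figure D3:**
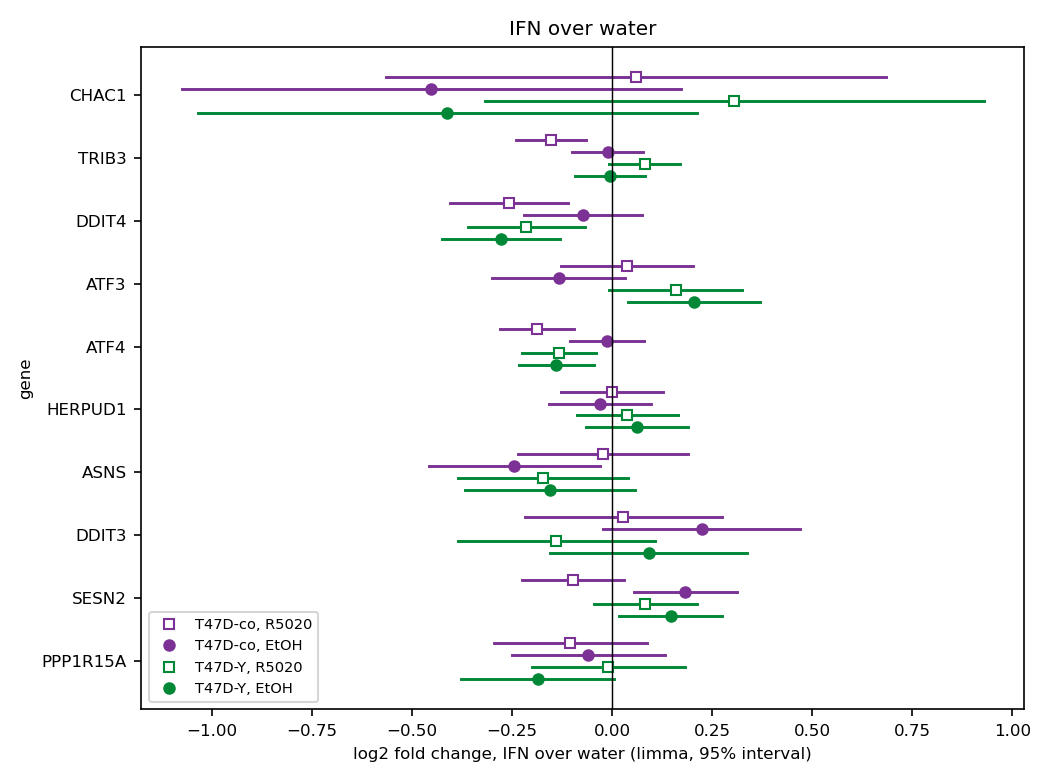
Log2 fold change of IFN over water (horizontal axis, limma estimate with 95% interval) for the 10 genes, in T47D-co (purple) and T47D-Y (green), with R5020 (open squares) and EtOH (filled circles). The called values are those of ATF4, DDIT4 and TRIB3 in T47D-co given R5020 and of DDIT4 in T47D-Y given EtOH, all between -0.28 and -0.15; on the deposited scale the T47D-Y values of ATF3, SESN2 and HERPUD1, and some of DDIT3 and TRIB3, turn negative.

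In T47D-Y given EtOH, 1 of the 10 was called, lower with IFN, against 4.44% of all entries called and 1.93% called lower. It was DDIT4, at 889, 818 and 788 scaled fragments with IFN, against 1025, 1028.5 and 967.5 with water. The groups did not overlap, and the log2 fold change was -0.28 ± 0.07 (limma, adjusted p = 0.0225). The call was lost without any of T47D-Y EtOH water replicates 1 or 2 or EtOH IFN replicates 2 or 3, with values of -0.26, -0.26, -0.27 and -0.24 and limma adjusted p of 0.0848, 0.0933, 0.0642 and 0.119. Without the 4 libraries of low mitochondrial share it was -0.26 with an adjusted p of 0.107, and the summed DDIT4 locus differed by -0.11. Of the 10 genes, 4 had an unadjusted p under 0.05 in this comparison, DDIT4, ATF4, ATF3 and SESN2, against 3422 of all 20162 entries. ATF4 had 942, 979 and 1018.5 with IFN against 1044.5, 1131 and 1063 with water, with no overlap, a difference of -0.14 ± 0.04 (limma, adjusted p = 0.08) that was called after quantile normalization (-0.16, 0.0463). ATF3 had 164.5, 160.3 and 185.5 with IFN against 151, 149.5 and 141.5 with water, a difference of 0.20 ± 0.08 that was not called (limma, adjusted p = 0.172) and was -0.27 on the deposited scale. In T47D-Y given R5020, 0 of the 10 were called by limma or with voom weights, against 4.77% of all entries. An unadjusted p under 0.05 was found for 2 of the 10, against 3280 of all 20162 entries. The difference between the IFN responses of T47D-co and T47D-Y given EtOH was called for 0 of the 10 by limma and with voom weights, against 0.377% of all entries. At an unadjusted p under 0.05 it found 1554 of all 20162 entries and 1 of the 10, ATF3 at -0.34 ± 0.11 with a limma adjusted p of 0.335. IFN comparisons set deposited columns side by side that, as read from their values, were scaled apart, and on the deposited scale many more of the genes would be called lower with IFN.

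The lines themselves differed in most of these genes, as they did in most entries. With EtOH and water 7 of the 10 were called between T47D-co and T47D-Y, against 63.1% of all entries, with 3 higher in T47D-co (29.7%) and 4 lower (33.4%). With EtOH and IFN 8 were called, against 62.6%, with 5 higher (29.6%) and 3 lower (33.0%). With R5020 and water it was 9, against 68.5%, with 4 higher (32.0%) and 5 lower (36.6%). With R5020 and IFN it was 8, against 68.3%, with 4 higher (32.5%) and 4 lower (35.8%). Since most entries were called in each setting, these counts alone say little about the 10 genes. HERPUD1 differed most steadily. It had 301, 285.5 and 271 scaled fragments in T47D-co given EtOH and water, against 982.5, 967 and 968 in T47D-Y given EtOH and water. All 12 T47D-co libraries lay far below all 12 T47D-Y libraries, with log2 fold changes of -1.76 ± 0.06 with EtOH and water (limma, adjusted p = 1.85e-18), -1.86 with EtOH and IFN, -1.76 with R5020 and water and -1.80 with R5020 and IFN. The HERPUD1 entry, at chr16:56965959-56977798, includes RP11-325K4.3, and the contribution of each was not separated.

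ASNS, at chr7:97481429-97501854, showed the same ordering. It had 193, 226 and 219 scaled fragments in T47D-co given EtOH and water, against 348, 387 and 385 in T47D-Y given EtOH and water. No T47D-co library of any treatment reached the lowest T47D-Y library. The log2 fold change was -0.81 ± 0.10 with EtOH and water (limma, adjusted p = 1.8e-07) and between -0.86 and -1.01 in the other 3 settings.

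CHAC1 changed its order with treatment. With R5020 and water it was higher in T47D-co, at 58.0, 57.1 and 59.8 scaled fragments against 18.1, 21.1 and 17.7 in T47D-Y, a log2 fold change of 1.58 ± 0.30 (limma, adjusted p = 5.59e-05). With EtOH and water it was lower in T47D-co, at 4.81, 7.14 and 8.07 against 17.3, 22.6 and 26.6 in T47D-Y, a log2 fold change of -1.60 ± 0.30 (limma, adjusted p = 5.37e-05). The groups did not overlap in either setting. With IFN the values were 1.33 with R5020 and -1.64 with EtOH.

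ATF3 was higher in T47D-co in every setting, by 0.66 ± 0.08 with EtOH and water (limma, adjusted p = 8.61e-08), 0.32 with EtOH and IFN, 1.33 with R5020 and water and 1.21 with R5020 and IFN. DDIT4 and TRIB3 were well apart between lines with R5020 and close with EtOH and water. DDIT4 differed by 1.12 ± 0.07 with R5020 and water (limma, adjusted p = 3.26e-13), against 0.05 ± 0.07 with EtOH and water (adjusted p = 0.551), which was -0.18 on the deposited scale. The summed DDIT4 locus differed by 0.89 with R5020 and water and by 0.02 with EtOH and water. TRIB3 differed by 0.97 ± 0.04 with R5020 and water (limma, adjusted p = 1.62e-16). With EtOH and water it differed by 0.10 ± 0.04 (limma, adjusted p = 0.0411), a call lost under upper-quartile scaling (0.08, adjusted p = 0.115) and quantile normalization (0.08, 0.0921) and turned to -0.13 on the deposited scale. It was 0.07 (limma, adjusted p = 0.282) without the 4 libraries of low mitochondrial share. The TRIB3 call with EtOH and water was also lost without any 1 of 5 of its 6 libraries, with adjusted p of 0.0533 to 0.215.

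SESN2 and PPP1R15A were lower in T47D-co with R5020, and so was DDIT3 with R5020 and water. SESN2 was lower by -0.33 ± 0.06 with R5020 and water (limma, adjusted p = 4.66e-05) and by -0.51 ± 0.06 with R5020 and IFN (adjusted p = 7.11e-08). PPP1R15A was lower by -0.25 ± 0.09 with R5020 and water (limma, adjusted p = 0.0219) and -0.34 ± 0.09 with R5020 and IFN (0.00215), both not called after quantile normalization (-0.08 and -0.17). Without the 4 libraries of low mitochondrial share the value with R5020 and water was -0.14, with 1 library left in the T47D-Y group. PPP1R15A was higher in T47D-co by 0.29 ± 0.09 with EtOH and water (limma, adjusted p = 0.00955) and 0.41 ± 0.09 with EtOH and IFN (0.000407). DDIT3 was lower by -0.37 ± 0.12 with R5020 and water (limma, adjusted p = 0.00828), and -0.25 without T47D-co R5020 water replicate 3 (adjusted p = 0.0815) or -0.17 after quantile normalization (0.223). The DDIT3 value was -0.26 without the 4 libraries of low mitochondrial share, again with 1 library left in the T47D-Y group. ATF4 differed by 0.02 ± 0.04 with R5020 and water, which was -0.19 on the deposited scale, and was lower in T47D-co by -0.21 ± 0.04 with EtOH and water (limma, adjusted p = 0.000192). With R5020 and water the PPP1R15A call was lost without T47D-co R5020 replicate 1 (-0.17) or T47D-Y R5020 replicate 1 (-0.22) or 2 (-0.22), and with EtOH and water without replicate 3 of T47D-co (0.20) or T47D-Y (0.20). With EtOH and IFN, DDIT3 (0.28 ± 0.12, limma adjusted p = 0.045) and SESN2 (0.15 ± 0.06, 0.0381) were called by a narrow margin, and each lost its call without any 1 of 4 of the 6 libraries. Without the 4 libraries of low mitochondrial share the adjusted p in limma was 0.0682 for DDIT3 (0.28) and 0.0616 for SESN2 (0.15).

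**Figure D4:**
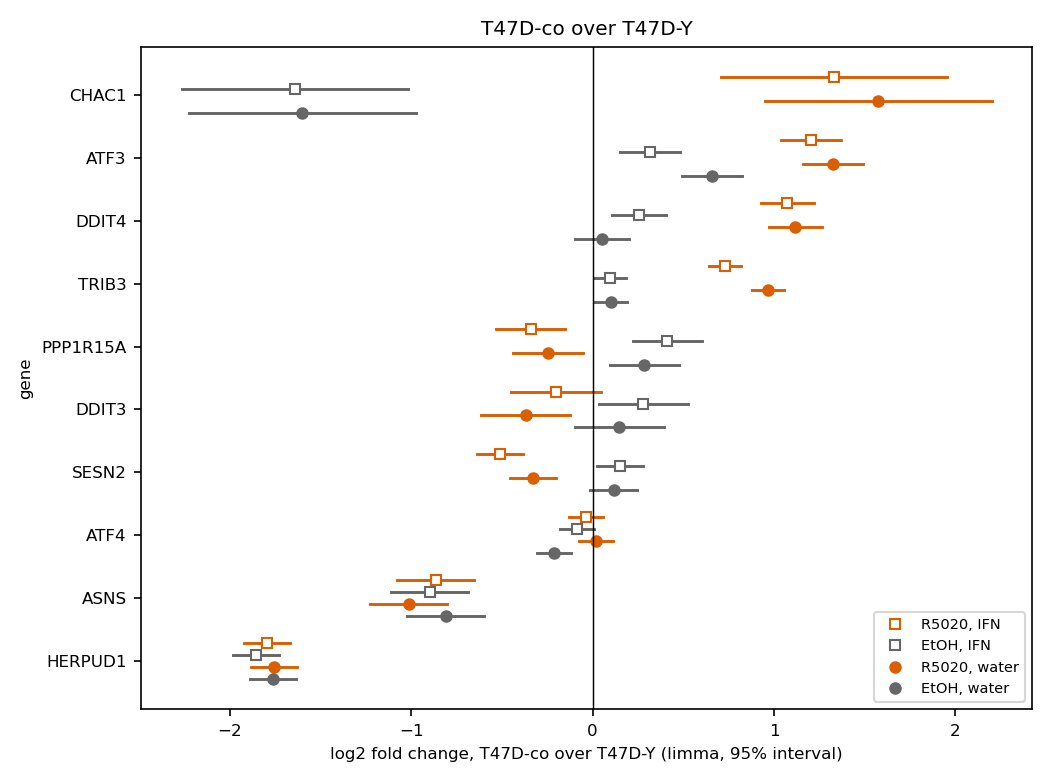
Log2 fold change of T47D-co over T47D-Y (horizontal axis, limma estimate with 95% interval) for the 10 genes, with R5020 (orange) and EtOH (grey), and with IFN (open squares) and water (filled circles). HERPUD1 and ASNS lie left of 0 under every treatment. CHAC1 stands at 1.58 with R5020 and water and at -1.60 with EtOH and water. Some values turn negative on the deposited scale. Of those called on either scale they are DDIT4 and TRIB3 with EtOH and water and ATF4 with R5020 and water.

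Over the 8 group means, CHAC1 spanned 3.49 on the log2 scale, HERPUD1 1.86, ATF3 1.42, DDIT4 1.33, ASNS 1.09, TRIB3 0.97, SESN2 0.74, PPP1R15A 0.66, DDIT3 0.62 and ATF4 only 0.23. CHAC1 was highest in T47D-co given R5020 and IFN at 61.0 ± 6.24 and given R5020 and water at 58.3 ± 1.36 scaled fragments, which overlapped. The 4 groups of T47D-Y came next, from 24.1 to 16.6, each overlapping its neighbour, and T47D-co given EtOH came last at 6.67 ± 1.68 with water and 4.99 ± 2.94 with IFN. For ATF3 the order was T47D-co given R5020, T47D-co given EtOH and T47D-Y, with a gap between these 3 tiers and overlap within each. For TRIB3, T47D-co given R5020 and water (2764 ± 96.3) and given R5020 and IFN (2485 ± 87.6) stood apart from each other and from the other 6 groups, which ran from 1538.5 to 1414.5 and overlapped in turn. For DDIT3 all neighbours in the order overlapped, from 206 ± 17.5 in T47D-co given EtOH and IFN to 134 ± 18.2 in T47D-co given R5020 and water.

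Across the 8 group means, as a description with no test, ASNS and HERPUD1 ran together (Pearson r = 0.98), as did ATF3 and TRIB3 (0.95) and DDIT4 and TRIB3 (0.94). DDIT3 and SESN2 ran together too (0.92), and DDIT3 ran against CHAC1 (-0.96). The 8 points are 2 lines under 4 treatments, so each such value mostly reads how a gene differs by line and by R5020. Among entries with a mean of at least 50 scaled fragments, the patterns most like that of CHAC1 were those of CMTM7 (r = 0.994) and CTC-458I2.2 (0.994), over the same 8 means. For ATF3 they were KIAA1211 (0.997) and TACC3 (0.996), for DDIT4 RP11-6N17.4 (0.989) and TUSC1 (0.988), for ASNS RMDN2 (0.999) and LYRM7 (0.998), and for HERPUD1 ETV3 (0.9995) and AC009262.2 (0.999).

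Upstream of these genes stand the 4 kinases that phosphorylate eIF2. EIF2AK2, the interferon-induced kinase PKR, averaged 3203 ± 262 scaled fragments with EtOH and IFN against 1738 ± 67.7 with EtOH and water in T47D-co, a log2 fold change of 0.88 ± 0.06 (limma, adjusted p = 7.77e-10). In T47D-Y it averaged 5225 ± 299 with EtOH and IFN against 1959 ± 74.7 with EtOH and water, a log2 fold change of 1.41 ± 0.06 (adjusted p = 1.96e-14). The kinase RNA was thus higher with IFN in both lines. Of the 10 genes, 0 were called higher with IFN by limma or with voom weights in any IFN comparison. Since only 1.00 to 11.3% of all entries were called in either direction in those comparisons, that count alone says little about these genes. With R5020 in T47D-co given water, EIF2AK4, the amino acid sensor GCN2, fell by 0.40 on the log2 scale to 1602 ± 49.1, against 2116 ± 16.2 with EtOH. EIF2AK3, the endoplasmic reticulum sensor PERK, rose to 981 ± 38.4 against 827 ± 8.84 with EtOH (log2 fold change 0.24 ± 0.06, limma, adjusted p = 0.000531), and by 0.49 ± 0.06 with IFN. EIF2AK1, the heme-regulated kinase, and EIF2AK2 fell by 0.14 and 0.19 with water. EIF2AK1, EIF2AK2 and EIF2AK3 share their loci with other entries.

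The wider pathway was read from 6 lists, counted over entries with a symbol of their own. For R5020 with water in T47D-co each count stands against 26.6% of all entries called higher and 30.0% called lower, 56.5% together. With R5020 and water in T47D-co, 6 of 9 tested amino acid transporters rose and 1 fell, with a median log2 fold change of 0.35 against -0.04 over all entries. SLC7A1, a transporter of cationic amino acids, rose by 1.03 ± 0.04, SLC38A2 for neutral amino acids by 0.84 ± 0.03, SLC1A4 by 0.74 ± 0.05 and SLC7A11, the cystine transporter, by 0.64 ± 0.11. Of 26 other ATF4 and CHOP targets 13 rose and 7 fell, against 26.6% and 30.0% of all entries, with a median of 0.16. CEBPG, which encodes a C/EBP partner of ATF4, rose to 1697 ± 14.7 scaled fragments against 596 ± 25.3 with EtOH, a log2 fold change of 1.51 ± 0.06 (limma, adjusted p = 1.28e-17). TNFRSF10B, the death receptor DR5, rose by 1.21 ± 0.04. PSPH, the last enzyme of serine synthesis, fell to 494 ± 24.0 against 1039 ± 20.1, and STC2, a secreted glycoprotein, fell to 2245 ± 76.7 against 4522 ± 219.5, each by about 1 on the log2 scale (-1.07 ± 0.04 and -1.01 ± 0.06). Of these SLC38A2, SLC7A11 and TNFRSF10B share their loci with other entries.

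Of 10 aminoacyl-tRNA synthetases, which charge transfer RNAs with amino acids, 5 rose and 1 fell with R5020 and water in T47D-co, against 26.6% and 30.0% of all entries, with a median of 0.14. AARS rose by 0.39 ± 0.04, GARS by 0.36 ± 0.03, MARS by 0.20 ± 0.03 and WARS by 0.19 ± 0.05, the last with a limma adjusted p of 0.0551 after quantile normalization, and all 4 share their loci. Of 16 endoplasmic reticulum chaperones and XBP1 or ATF6 targets 8 rose and 3 fell, with a median of 0.09. ERN1, the sensor IRE1, rose by 1.15 ± 0.08, MANF, a stress-secreted protein, by 0.50 ± 0.05 and SDF2L1 by 0.37 ± 0.11, while SEL1L, part of the degradation machinery, fell by 0.28. Of 11 genes for eIF2 kinases, eIF2 and eIF2B subunits and phosphatase parts, 4 rose and 5 fell, with a median of -0.11. With the 6 merged entries of this list included, 7 of 17 rose and 7 fell, and the median was 0.02. EIF2S1, the alpha subunit of eIF2, rose by 0.41 ± 0.05, EIF2B1 by 0.25 ± 0.04, and EIF2B4 fell by 0.40, all at shared loci. Of 9 p53 targets, a list kept because SESN2 also answers to p53, 4 rose and 1 fell, with a median of 0.08, a share called in both directions near the 56.5% of all entries. GADD45A, a growth arrest gene, rose to 89.4 ± 21.3 against 27.2 ± 6.12 with EtOH (1.67 ± 0.17), RRM2B rose by 0.69 ± 0.05 and TP53INP1 by 0.57 ± 0.05, while ZMAT3 fell by 0.61. These changes were called by limma with adjusted p of 6.59e-20 to 0.00714, and in T47D-Y given water limma called 0 genes of the 6 lists with R5020, where 0.218% of all entries were called.

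**Figure D5:**
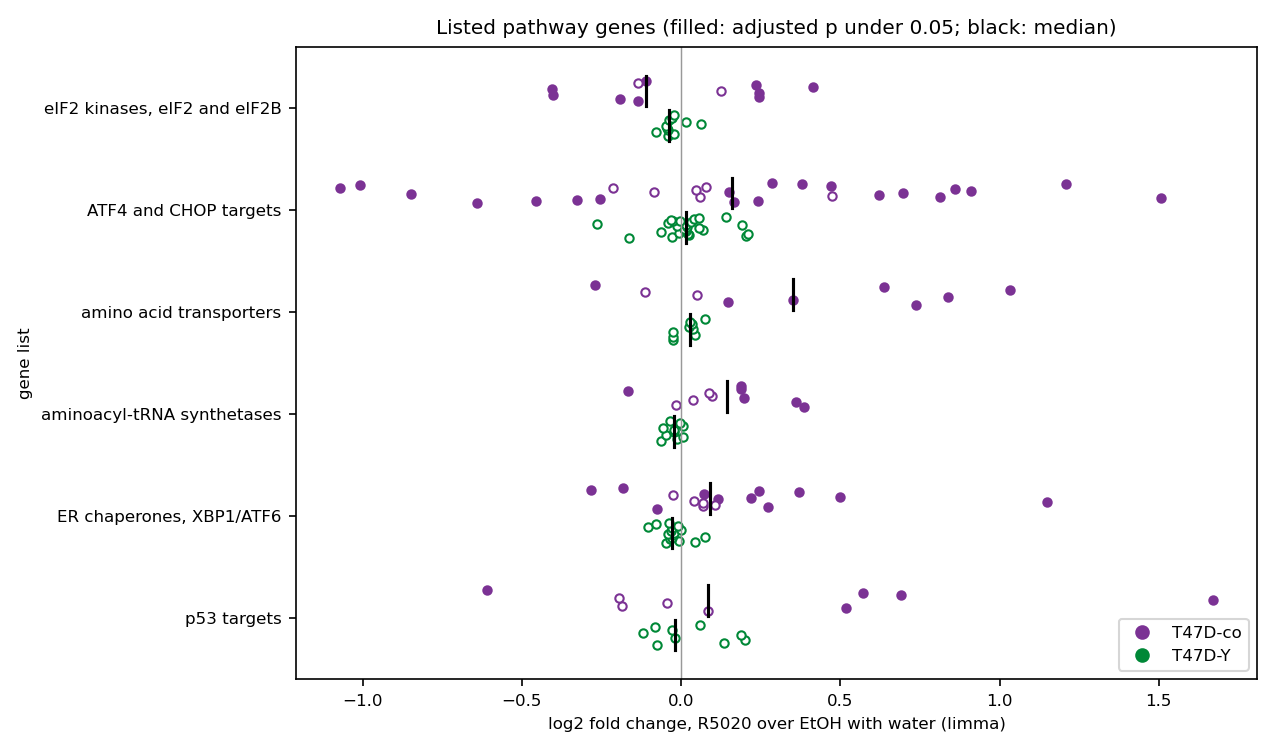
Log2 fold change of R5020 over EtOH with water (horizontal axis, limma) for the genes of 6 lists with a symbol of their own, in T47D-co (purple) and T47D-Y (green); filled points were called and black bars are medians. In T47D-co the amino acid transporters have the highest median, 0.35, while in T47D-Y every median lies between -0.04 and 0.03.

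With IFN and EtOH few of these genes were called. In T47D-co they were EIF2AK2 and the chaperones CALR (0.12 ± 0.03) and HSPA5 (0.12 ± 0.03), whose limma adjusted p was 0.116 and 0.0664 under upper-quartile scaling and whose sign was negative on the deposited scale. In T47D-Y the rule named EIF2AK2, TNFRSF10B (0.17 ± 0.04), HSP90B1 (0.16 ± 0.03), HSPA5 (0.13 ± 0.03) and SLC38A2 (0.13 ± 0.03), and all but EIF2AK2 were lower with IFN on the deposited scale, at -0.31, -0.32, -0.35 and -0.35. Without the 4 libraries of low mitochondrial share only EIF2AK2 and, in T47D-Y, HSPA5 were still called, and the limma adjusted p of the others was 0.0541 to 0.198. EIF2AK2 alone kept its direction and its call under every scaling tried.

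Between the untreated lines, T47D-co given EtOH and water had lower levels than T47D-Y given EtOH and water in 9 of 10 aminoacyl-tRNA synthetases, with 1 higher and a median log2 fold change of -0.50, where 33.4% of all entries were called lower and 29.7% higher. AARS was lower by -0.84 ± 0.04 and EPRS by -0.65 ± 0.04. Of the other lists, counted the same way, only that of eIF2 kinases, eIF2 and eIF2B had more genes lower than higher. Of 26 other ATF4 and CHOP targets 17 were higher in T47D-co and 3 lower, with a median of 0.35. Of 9 amino acid transporters 5 were higher and 3 lower (median 0.26). Of 11 genes for eIF2 kinases, eIF2 and eIF2B, 2 were higher and 7 lower (-0.17). The counts were 5 higher and 5 lower of 16 chaperones, and 5 higher and 4 lower of 9 p53 targets. PSAT1, the second enzyme of serine synthesis, had 2.97 ± 1.59 scaled fragments in T47D-co and 394 ± 15.0 in T47D-Y. STC2 ran the other way, at 4522 ± 219.5 in T47D-co and 228.5 ± 13.1 in T47D-Y. Of the transporters, SLC7A5, which carries large neutral amino acids, was higher in T47D-co by 2.50 ± 0.05 and its partner chain SLC3A2 by 0.62 ± 0.04. In the same comparison EIF2B1 differed by -0.66 ± 0.04, EIF2AK1 by -0.56 ± 0.03, DNAJB9 by 0.71 ± 0.10, SEL1L by 0.54 ± 0.04, BTG2 by -1.63 ± 0.10 and GADD45A by -1.44 ± 0.17. All were called by limma, with adjusted p of 2.16e-26 to 6.18e-07.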

How the data were processed

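The deposited table gives, per the labels, 24 libraries of total RNA in 8 groups of 3. Reads were processed with TopHat2 2.0.12 and Cufflinks 2.2.1 on GRCh37 (hg19), per the submitters' processing notes. The deposited values state no unit in the file header and were taken as a signal: for entries with no neighbour at their locus, 97.9 to 98.9% of a library's values were multiples of a single step, within 0.05 of it, read as the authors having divided estimated fragments by a size factor. Over all entries 59.1 to 62.3% were whole, since fragments at shared loci are divided, so no test needing whole counts was run. No source used here states how the factors were set. From the values they appear to have been set within 4 blocks (line by IFN), a reading on which the IFN and line comparisons depend. The deposited scale departs from a common one by 0.28 (T47D-Y, water), -0.20 (T47D-Y, IFN), 0.05 (T47D-co, water) and -0.13 (T47D-co, IFN) on the log2 scale. Those factors were removed, and median-of-ratios scaling over 14201 entries was applied to all libraries together. Symbols that occur repeatedly, 10 of them in 25 entries, were dropped.

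The 20162 entries reaching 10 scaled fragments in 3 or more libraries were analysed as log2(scaled fragments + 1) with limma 3.58.1 in R 4.3.3, with a variance trend, in 1 fit of 8 group means (16 residual and 8.05 prior degrees of freedom). From it came 12 differences between groups and 4 interactions, two-sided, with Benjamini-Hochberg adjustment over all tested entries and calls at 0.05. The fit was also run on simulated whole counts with few changed entries, unlike these data, and no result here rests on that run. Within-group correlations across entries, which are not independent replicates, were 0.983 to 0.988. Parsing and figures used Python 3.11.15. Promoter sequences come from RefSeq on GRCh38.p14.

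The genes and lists were chosen with earlier results of these data known. All 10 genes are named. From each list, the called genes of largest change are named: up to 4 for R5020 with water in T47D-co and up to 2 for each IFN comparison with EtOH and for the line difference with EtOH and water, given a symbol of their own and a group mean of at least 50. The 4 eIF2 kinases were added as a set after their values were seen. Look-alike patterns are the 2 highest correlations for genes spanning at least 1 over the group means. Alternatives were other scalings, pseudocounts, minimum levels, voom weights, a replicate block, fits on the compared groups alone, and leaving libraries out.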

Additional observations from a re-analysis of the deposited data

Results flagged for a closer look

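The R5020 response differed between T47D-co and T47D-Y, both given water, for 8 of the 10 genes by a direct test of that difference. Of all entries 44.6% were called. The difference in log2 fold change, T47D-co minus T47D-Y, was 3.18 for CHAC1, 1.07 for DDIT4, 0.86 for TRIB3, 0.67 for ATF3 and 0.23 for ATF4. It was -0.53 for PPP1R15A, -0.52 for DDIT3 and -0.44 for SESN2. Groups of 3 libraries were too small for a search for single libraries that stand apart.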

How the results depend on the processing

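Member values were recomputed under the alternatives and counted where the gene was called in that comparison under any setting. Of these, 1467 kept their side of the threshold, 53 lost a call and 37 gained a call. A further 12 changed sign with a call in the main or the alternative fit. A sign change with no call in either fit counts among the 1467. The cause was not tested. On the deposited scale, which differs between blocks of libraries, the number of the 10 genes called rose to 7 for IFN with EtOH and 6 for IFN with R5020 in T47D-co, to 10 and 9 for the same in T47D-Y, and to 6 for line by IFN. Over all entries the same scale gave 8433, 7201, 14730, 14791 and 9531 calls. All 12 of the counted sign changes arose there. For IFN with EtOH in T47D-Y they were ATF3 -0.27, DDIT3 -0.38, SESN2 -0.33 and HERPUD1 -0.42, and for IFN with R5020 in T47D-Y ATF3 -0.32, TRIB3 -0.40, SESN2 -0.40 and HERPUD1 -0.45. For the line difference they were DDIT4 -0.18 and TRIB3 -0.13 with EtOH and water and ATF4 -0.19 with R5020 and water, and for line by IFN TRIB3 0.29. Quantile normalization gave 2 called genes for IFN with EtOH in T47D-Y, and over all entries 1406 calls for IFN with R5020 and 67 for R5020 by IFN in T47D-co. Upper-quartile scaling gave 2 called genes for IFN with R5020 in T47D-Y. Without the 4 libraries of low mitochondrial share, 0 genes were called for IFN with EtOH in T47D-Y. All-entry calls were then 130 and 513 for IFN with EtOH in T47D-co and T47D-Y, 50 for line by IFN and 63 for R5020 by IFN in T47D-co. They are not given for comparisons with T47D-Y given R5020 and water, which kept 1 library. For R5020 with IFN in T47D-Y voom weights gave 29 and the compared groups alone 23.

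Leaving out 1 library at a time, the called genes ranged over 0 to 3 for IFN with R5020 in T47D-co and 0 to 1 for IFN with EtOH in T47D-Y. All-entry calls ranged over 33 to 52 for R5020 with IFN in T47D-Y, 1199 to 3001 for IFN with R5020 in T47D-co, 572 to 856 and 524 to 945 for IFN with EtOH and with R5020 in T47D-Y, and 74 to 394 and 0 to 2 for R5020 by IFN in T47D-co and T47D-Y. In no comparison did all 3 same-numbered pairs of libraries deviate together at a correlation over 0.1, so the replicate numbers were not treated as pairing. A replicate block changed 1 member call, TRIB3 between the lines with EtOH and IFN (0.10, limma adjusted p = 0.0421). CHAC1 was too low to be tested when the groups of IFN with EtOH in T47D-co were fitted alone. Depth limits CHAC1 in T47D-co given EtOH, at a few fragments per library.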
